A study of Mus musculus with 16 samples.

Results

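The VEGF receptors and neuropilins are a family of 5 mouse genes: the receptor tyrosine kinases Kdr (VEGFR2), Flt1 (VEGFR1) and Flt4 (VEGFR3), and the co-receptors Nrp1 and Nrp2. Members were all array probes whose gene name in the scanner files is one of these symbols, which gave 8 of the 55594 probes used: 2 each for Kdr, Flt1 and Nrp2, and 1 each for Flt4 and Nrp1. All 8 probes passed the filter on dim signal, 6 of them with signal well above background on all 16 arrays. The exceptions were Flt4, well above background on 12 arrays, and the upstream Flt1 probe, on 7.

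The study profiled sorted mouse cells of stage E11.5 on 16 one-colour Agilent arrays, 2 for each of 8 groups. Every group was sorted for VE-cadherin, an adhesion protein of endothelial cells, and was CD45- (the gate labelled P3) or CD45+ (the gate labelled P4), CD45 being the common surface protein of blood leukocytes. Cells came from the embryo proper or the yolk sac, and from control or Tie-2-Etv2 animals of a mixed background (B6/CBA and others), without any treatment after the sort. Etv2 is an ETS transcription factor that starts the endothelial and blood programmes, and Tie-2 is the receptor Tek, whose regulatory sequences are active in endothelial cells and in some blood cells. The transgene's construction and the number of animals in a sample are not given in the sources used here. The titles of the transgenic embryo CD45- samples name only Tie-2, while their genotype field reads Tie-2-Etv2. Since the labels do not say that replicates came from separate embryos, the p-values cover only how far these samples spread, and that spread may be technical.

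VEGF ligands are secreted proteins that bind the receptors on endothelial cells: VEGF-A binds Kdr and Flt1, VEGF-B and placental growth factor bind Flt1, and VEGF-C and VEGF-D bind Flt4. Kdr carries the main signal for endothelial growth and sprouting, Flt1 binds VEGF-A tightly while signalling weakly and exists also as a soluble decoy, and Flt4 acts in sprouting vessels and later in lymphatic vessels. Neuropilins bind both VEGFs and class 3 semaphorins, Nrp1 mostly in arteries and Nrp2 mostly in veins and lymphatic vessels. In the embryo and yolk sac, Kdr also marks the early mesoderm from which endothelial and blood cells arise.

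The probes are shown because the 2 Kdr probes read the same gene differently, and because each value below belongs to the transcript stretch its probe matches. Coordinates are those of the array files (mm9). The downstream probe of a gene lies further along the gene in the direction of transcription than the upstream one. Probes are printed 5′ to 3′ in lower case, those of Kdr upstream and Nrp1 over all 60 bases and the others over their first 30 bases.
Kdr downstream (chr5:76329309-76329368, minus strand, 10 copies on the array): ctactgtatcctttagaattttaacctata
Kdr upstream (chr5:76330395-76330454, minus strand): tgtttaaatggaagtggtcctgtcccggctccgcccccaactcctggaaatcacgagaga
Flt1 downstream (chr5:148373791-148373850, minus strand): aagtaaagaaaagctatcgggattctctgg
Flt1 upstream (chr5:148465976-148466035, minus strand): tccctatcccaactacacattcaatcttct
Flt4 (chr11:49465646-49465705, plus strand): agcttaccctatacttttacctgactttaa
Nrp1 (chr8:131026650-131026709, plus strand): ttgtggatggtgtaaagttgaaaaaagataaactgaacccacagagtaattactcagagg
Nrp2 downstream (chr1:62865129-62865188, plus strand): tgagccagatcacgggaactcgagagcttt
Nrp2 upstream (chr1:62843298-62843357, plus strand): ggtttctgttggctgtcattgtcatctcca
The Kdr probes start 1086 bases apart and the files assign both to the same RefSeq transcript. Their base composition differs: 35% of the downstream probe and 55% of the upstream probe is G or C. The Flt1 probes start 92185 bases apart, and the files give the upstream one a cDNA clone in place of the RefSeq transcript of the downstream one. The Nrp2 probes start 21831 bases apart and carry different RefSeq accessions of Nrp2.

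The 250 bases before the transcript start of Kdr and Flt4 are shown because both genes gave higher signal in Tie-2-Etv2 CD45+ cells (below), and ETS factors such as Etv2 bind a core of the letters GGAA. Sequences are from RefSeq, build GRCm38.p6, on the gene's strand, with each GGAA, or TTCC for the opposite strand, in capitals.
Kdr promoter (chr5:75978456-75978705, minus strand): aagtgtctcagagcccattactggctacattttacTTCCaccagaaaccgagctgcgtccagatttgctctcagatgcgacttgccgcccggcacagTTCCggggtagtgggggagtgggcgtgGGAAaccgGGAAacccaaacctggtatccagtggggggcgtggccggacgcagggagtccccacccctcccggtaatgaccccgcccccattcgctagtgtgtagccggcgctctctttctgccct
Flt4 promoter (chr11:49609429-49609678, plus strand): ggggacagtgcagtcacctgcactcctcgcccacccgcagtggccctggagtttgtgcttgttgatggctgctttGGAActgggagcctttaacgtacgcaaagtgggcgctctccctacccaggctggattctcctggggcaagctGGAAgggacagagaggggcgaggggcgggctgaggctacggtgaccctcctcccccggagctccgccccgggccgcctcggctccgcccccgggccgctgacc
The Kdr window holds 4 GGAA matches on either strand, 1 of them within the longer CCGGAA, which overlaps the core. The Flt4 window holds 2. For the other members the windows of the same length hold 4 in Flt1, 4 in Nrp1 and 1 in Nrp2, and the motif AACAGGAA is in none of the 5. Such matches are common: 93.4% of 32851 RefSeq promoter windows of this length hold GGAA, with a median of 3 matches, and 33.4% hold at least the 4 of Kdr. CCGGAA is in 12% of them and AACAGGAA in 2.25%. A match is a stretch of letters and was not measured as a binding site here.

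Levels are given as the log2 of the scanner's processed signal minus the 75th percentile of its array, so a level of 0 is the 75th percentile itself; levels of different probes cannot be compared. Between 50.6% and 59.9% of probes were well above background on an array, and no spot was saturated. Arrays of one group correlated at 0.972 to 0.991 over the 34126 probes kept. All embryo arrays lay on 1 slide and all yolk sac arrays on another, so tissue and slide cannot be told apart, and the CD45- arrays lay in another row of their slide than the CD45+ arrays, so gate and row cannot be told apart either. Etv2 was higher in Tie-2-Etv2 than in control yolk sac samples, by 6.36 ± 0.96 (log2 difference ± SE, adjusted p = 0.000543) in the CD45- and 6.08 ± 0.96 (adjusted p = 0.000906) in the CD45+ gate, where only 1 of the 2 control arrays was well above background, so the second size is uncertain. In the embryo the Etv2 differences were 2.50 (adjusted p = 0.608) in CD45- and 3.09 (adjusted p = 0.135) in CD45+ cells, which did not pass. Etv2 means there went from -0.14 to 2.36 in CD45- and from -2.57 to 0.52 in CD45+ cells, each well above background on both arrays. The fit pools the spread of all 8 groups, and Etv2 spread most in control yolk sac CD45+ cells (SD 2.91). No embryo group had an SD above 0.59. Ptprc, the gene of CD45, was not well above background in control CD45- cells of either tissue and stood at a mean of 3.22 in control embryo and 3.35 in control yolk sac CD45+ cells. In Tie-2-Etv2 yolk sac cells it was at least 3.33-fold higher in the CD45- gate (adjusted p = 0.000895) and fell by 1.28 ± 0.30 in the CD45+ gate (adjusted p = 0.00827). Cdh5, the gene of VE-cadherin, stood at 5.79 and 5.75 in the control CD45- cells of embryo and yolk sac, and at -0.16 and -0.26 in their CD45+ cells, where it was still well above background. From control to Tie-2-Etv2, Tek means went from -3.16 to 0.35 in embryo CD45+ and from -2.44 to 2.58 in yolk sac CD45+ cells. In CD45- cells Tek went from 3.48 to 3.43 for embryo and from 4.23 to 3.54 for yolk sac.

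**Figure D1:**
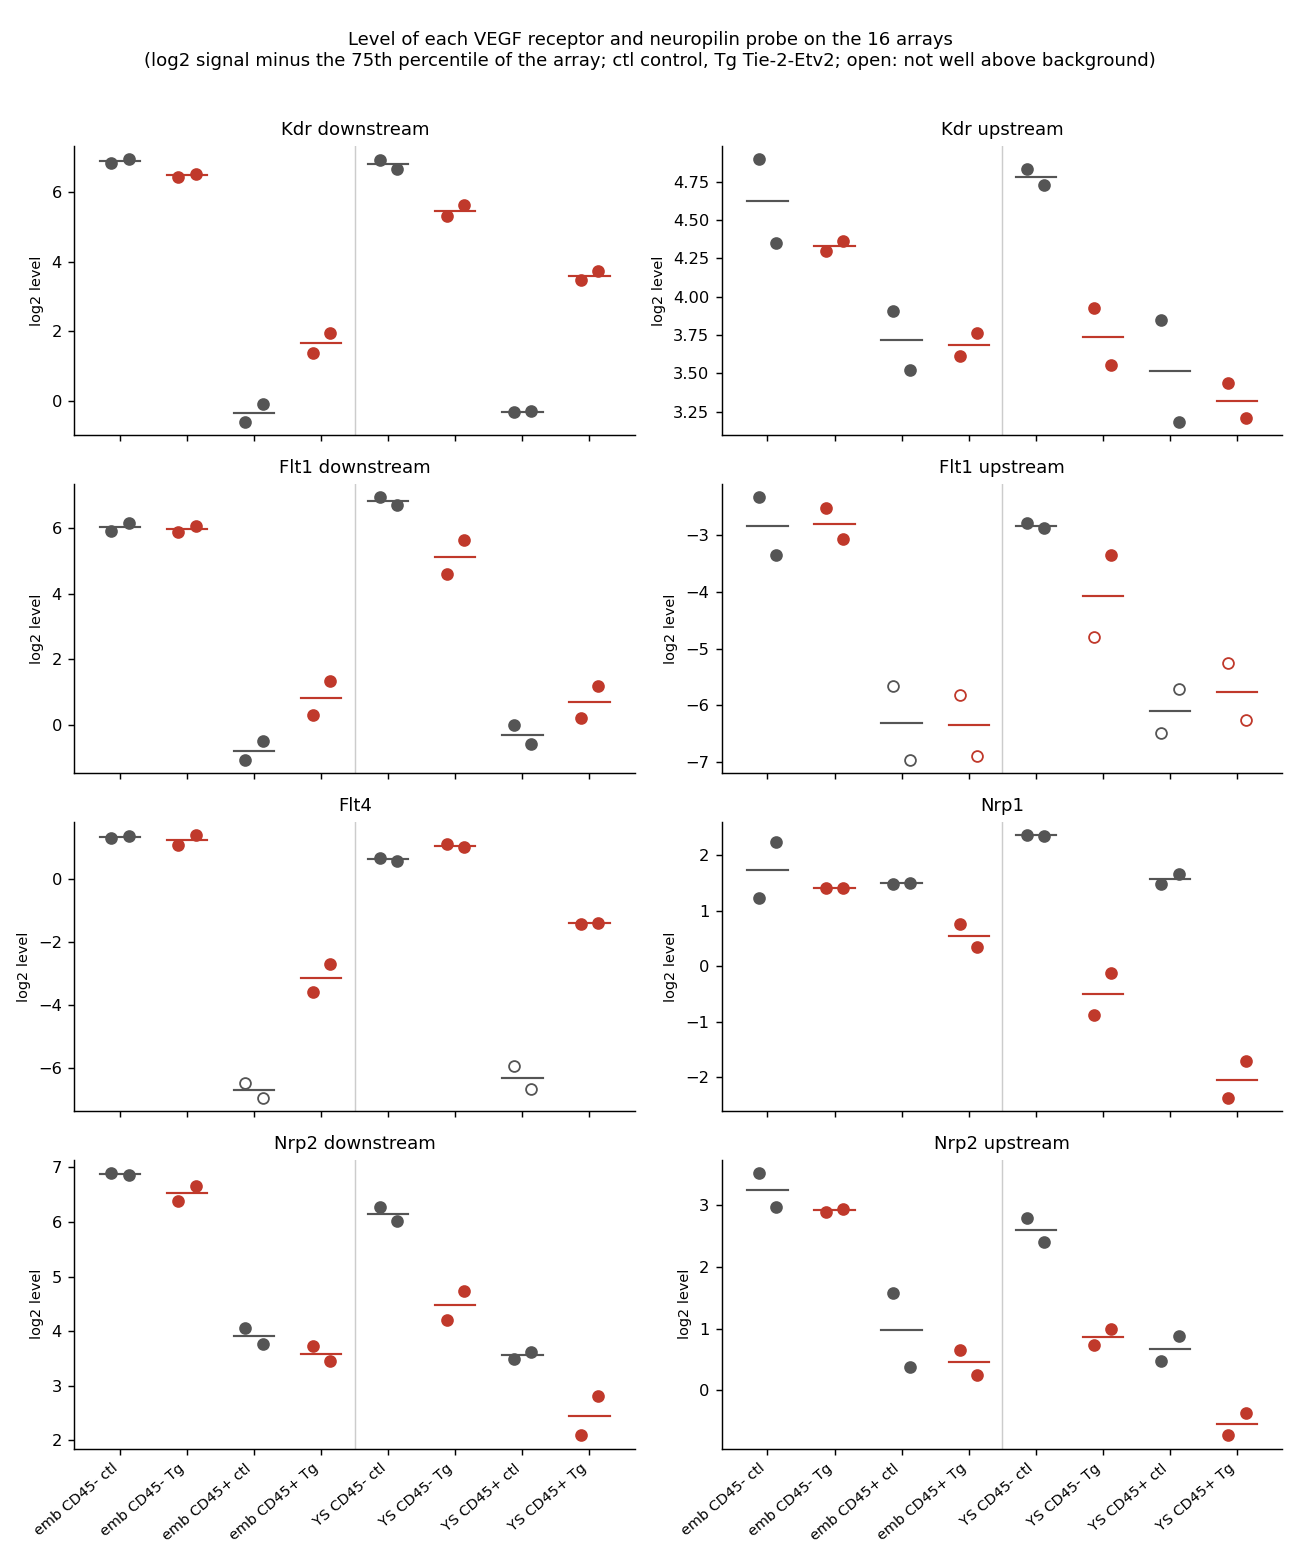
Level of each of the 8 probes (y axis, log2 signal minus the array's 75th percentile) on the 16 arrays, 1 point an array, grouped along the x axis by tissue (emb, embryo proper; YS, yolk sac), gate and genotype (ctl, control, grey; Tg, Tie-2-Etv2, red); bars are group means and open points are not well above background. Kdr downstream lies between -0.61 and -0.10 in control CD45+ cells of both tissues and between 3.46 and 3.73 in yolk sac Tie-2-Etv2 CD45+ cells, while Kdr upstream lies between 3.18 and 4.89 on all 16 arrays.

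Kdr, the main signalling receptor for VEGF-A, was strongly expressed by its downstream probe in CD45- cells, near the 75th percentile in control CD45+ cells, and higher in the Tie-2-Etv2 CD45+ cells of both tissues. The upstream probe showed no such rise, so the statement rests on 1 of the 2 Kdr probes. On the downstream probe the control embryo CD45- arrays read 6.83 and 6.94, and the control yolk sac CD45- arrays 6.94 and 6.67. Control CD45+ arrays read -0.61 and -0.10 for embryo and -0.33 and -0.29 for yolk sac. Tie-2-Etv2 CD45+ arrays read 1.36 and 1.95 for embryo and 3.46 and 3.73 for yolk sac. Transgenic and control CD45+ arrays did not overlap in either tissue, and every CD45+ array lay below every CD45- array. Here and below, groups of 2 arrays separate easily without any effect, and the share of all probes that did so was not counted. The rise with the transgene was 2.01 ± 0.24 in the embryo, a 4.02-fold higher signal (adjusted p = 0.00188), and 3.91 ± 0.24 in the yolk sac, 15.0-fold (adjusted p = 7.94e-06). In the embryo the call was lost when only the 4 compared arrays were fitted (adjusted p = 0.184). The 10 copies of this probe on each array varied by 1.57% to 10.3% (coefficient of variation), and the upstream probe is 1 spot.

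The upstream Kdr probe read 3.91 and 3.52 in control and 3.61 and 3.76 in Tie-2-Etv2 embryo CD45+ cells, and 3.85 and 3.18 against 3.44 and 3.21 in yolk sac CD45+ cells. The groups overlapped in both tissues. Its differences were -0.03 (95% interval -0.62 to 0.56, adjusted p = 0.983) and -0.19 (-0.78 to 0.39, adjusted p = 0.626), intervals that do not reach the sizes measured by the downstream probe. Across all 16 arrays this probe ranged from 3.18 to 4.89, a span far smaller than that of the downstream probe, which ran from -0.61 to 6.94. Why the probes differ was not tested.

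In CD45- cells the Kdr probes moved alike. Tie-2-Etv2 yolk sac CD45- arrays read 5.32 and 5.62 on the downstream probe and 3.93 and 3.56 on the upstream probe, whose control arrays read 4.83 and 4.73. Both fell, by 1.34 ± 0.24 (adjusted p = 0.00158, 2.52-fold lower) and by 1.04 ± 0.26 (adjusted p = 0.0101, 2.06-fold lower). The call of the upstream probe was lost without control replicate 1 (-0.99, adjusted p = 0.0575) or without Tie-2-Etv2 replicate 2 (-0.86, adjusted p = 0.069). Tie-2-Etv2 embryo CD45- arrays read 6.44 and 6.53 downstream and 4.30 and 4.36 upstream, differences of -0.40 ± 0.24 (adjusted p = 0.922) and -0.29 ± 0.26 (adjusted p = 1), neither of which passed.

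Flt1, the tight-binding VEGF-A receptor, followed the CD45 gate as Kdr downstream did, but its values in transgenic CD45+ cells did not pass the test. Its downstream probe read 5.92 and 6.17 in control and 5.89 and 6.07 in Tie-2-Etv2 embryo CD45- cells, and -1.07 and -0.51 in control against 0.30 and 1.33 in Tie-2-Etv2 embryo CD45+ cells. In the yolk sac the CD45- arrays read 6.94 and 6.72 in control and 4.59 and 5.65 in Tie-2-Etv2 cells. The yolk sac CD45+ arrays read -0.02 and -0.59 in control and 0.19 and 1.18 in Tie-2-Etv2 cells. Transgenic and control arrays overlapped only in embryo CD45- cells. The fall in yolk sac CD45- cells was 1.71 ± 0.45 on the log2 scale (adjusted p = 0.0127, 3.27-fold lower). It was no longer called without control replicate 1 (-1.60, adjusted p = 0.0696) or without Tie-2-Etv2 replicate 1 (-1.18, adjusted p = 0.118). In the CD45+ gate the differences were 1.61 ± 0.45 (95% interval 0.60 to 2.62, adjusted p = 0.102) for embryo and 0.99 ± 0.45 (-0.02 to 2.00, adjusted p = 0.129) for yolk sac. These intervals take in rises of up to 2.62 and 2.00, so they do not show that Flt1 was level. The upstream Flt1 probe was dim: it read between -3.35 and -2.33 on the embryo CD45- and control yolk sac CD45- arrays. Tie-2-Etv2 yolk sac CD45- arrays read -4.79, not well above background, and -3.35. Every CD45+ array lay at background for this probe, between -6.96 and -5.26. Its yolk sac CD45- difference of -1.24 ± 0.63 did not pass (adjusted p = 0.144).

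Flt4, the receptor of VEGF-C and VEGF-D, was measured on every CD45- array, lay at background in control CD45+ cells, and rose above it in Tie-2-Etv2 CD45+ cells of both tissues. Its single probe read 1.29 and 1.36 in control and 1.07 and 1.38 in Tie-2-Etv2 embryo CD45- cells, and 0.66 and 0.58 against 1.08 and 1.00 in yolk sac CD45- cells. The control CD45+ arrays read -6.45 and -6.93 for embryo and -5.93 and -6.67 for yolk sac, all 4 not well above background. The Tie-2-Etv2 CD45+ arrays read -3.58 and -2.70 for embryo and -1.43 and -1.39 for yolk sac, all 4 well above it. Since a dim probe gives only a bound, the fold was taken against the higher of each array's lowest well-measured signal and the probe's own signal. By that bound Flt4 was at least 2.64-fold higher in Tie-2-Etv2 embryo CD45+ cells (adjusted p = 0.000261) and at least 7.86-fold higher in yolk sac CD45+ cells (adjusted p = 9e-06). The size of both differences depends on how background is removed: the fitted values were 3.55 ± 0.31 and 4.88 ± 0.31, against 0.68 (adjusted p = 0.042) and 1.24 (adjusted p = 0.000102) with normexp background correction. With only the 4 compared arrays in the fit, the embryo call was lost (adjusted p = 0.112). In CD45- cells the differences were -0.10 (95% interval -0.80 to 0.59, adjusted p = 1) for embryo and 0.42 (-0.27 to 1.12, adjusted p = 0.313) for yolk sac. In yolk sac CD45- cells, where both Kdr probes and downstream Flt1 fell, both transgenic Flt4 arrays thus read above both controls, a difference that did not pass.

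Nrp1, the co-receptor of VEGF-A and class 3 semaphorins, fell in both gates of the yolk sac with the transgene, and did not pass between gates in control cells of either tissue. Control arrays read 1.22 and 2.23 in embryo CD45-, 1.49 and 1.50 in embryo CD45+, 2.36 and 2.35 in yolk sac CD45-, and 1.49 and 1.66 in yolk sac CD45+ cells. Tie-2-Etv2 arrays of the embryo read 1.41 and 1.41 in CD45- and 0.76 and 0.34 in CD45+ cells. Those of the yolk sac read -0.87 and -0.11 in CD45- and -2.36 and -1.71 in CD45+ cells, below every control array of the study. Nrp1 fell by 2.85 ± 0.35 in yolk sac CD45- cells (adjusted p = 0.00017, 7.20-fold lower) and by 3.61 ± 0.35 in yolk sac CD45+ cells (adjusted p = 5.74e-05, 12.2-fold lower). In the embryo the differences were -0.32 (95% interval -1.10 to 0.46, adjusted p = 1) in CD45- and -0.95 (-1.73 to -0.16, adjusted p = 0.222) in CD45+ cells. The CD45+ arrays of the embryo did not overlap between genotypes, which says little with 2 arrays a group, and the difference did not pass.

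Nrp2, the co-receptor of VEGF-C and class 3 semaphorins, was measured on all 16 arrays by both probes, and both fell in Tie-2-Etv2 yolk sac cells of either gate. On the downstream probe control arrays read 6.90 and 6.85 in embryo CD45-, 4.06 and 3.77 in embryo CD45+, 6.27 and 6.02 in yolk sac CD45-, and 3.49 and 3.62 in yolk sac CD45+ cells. Tie-2-Etv2 arrays in the same order read 6.39 and 6.66, 3.73 and 3.45, 4.21 and 4.74, and 2.09 and 2.81. Genotypes did not overlap on this probe in any of the 4 settings, which says little with 2 arrays a group, and the embryo differences were small. The falls were 1.67 ± 0.26 (adjusted p = 0.000712) downstream and 1.73 ± 0.37 (adjusted p = 0.00384) upstream in yolk sac CD45- cells. In the CD45+ gate of the yolk sac the downstream probe fell by 1.11 ± 0.26 (adjusted p = 0.00933) and the upstream one fell by 1.22 ± 0.37 (adjusted p = 0.0273). These CD45+ calls were fragile. Without Tie-2-Etv2 replicate 1 the downstream difference was -0.75 (adjusted p = 0.0924), and the upstream call was lost without control replicate 2 (adjusted p = 0.125), Tie-2-Etv2 replicate 1 (0.153) or Tie-2-Etv2 replicate 2 (0.0589), and with no filter on dim probes (0.0509). Both CD45+ calls were lost with only the compared arrays in the fit (adjusted p = 0.0932 and 0.0549). In the embryo the differences were -0.35 and -0.33 in CD45- cells (adjusted p = 0.985 and 1) and -0.32 and -0.52 in CD45+ cells (adjusted p = 0.67 and 0.594). The upstream probe read 3.52, 2.96, 2.88 and 2.94 across control and transgenic embryo CD45- arrays and 1.57, 0.37, 0.66 and 0.26 across embryo CD45+ arrays. In the yolk sac it read 2.78 and 2.40 against 0.73 and 0.99 in CD45- cells, and 0.48 and 0.87 against -0.73 and -0.37 in CD45+ cells.

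**Figure D2:**
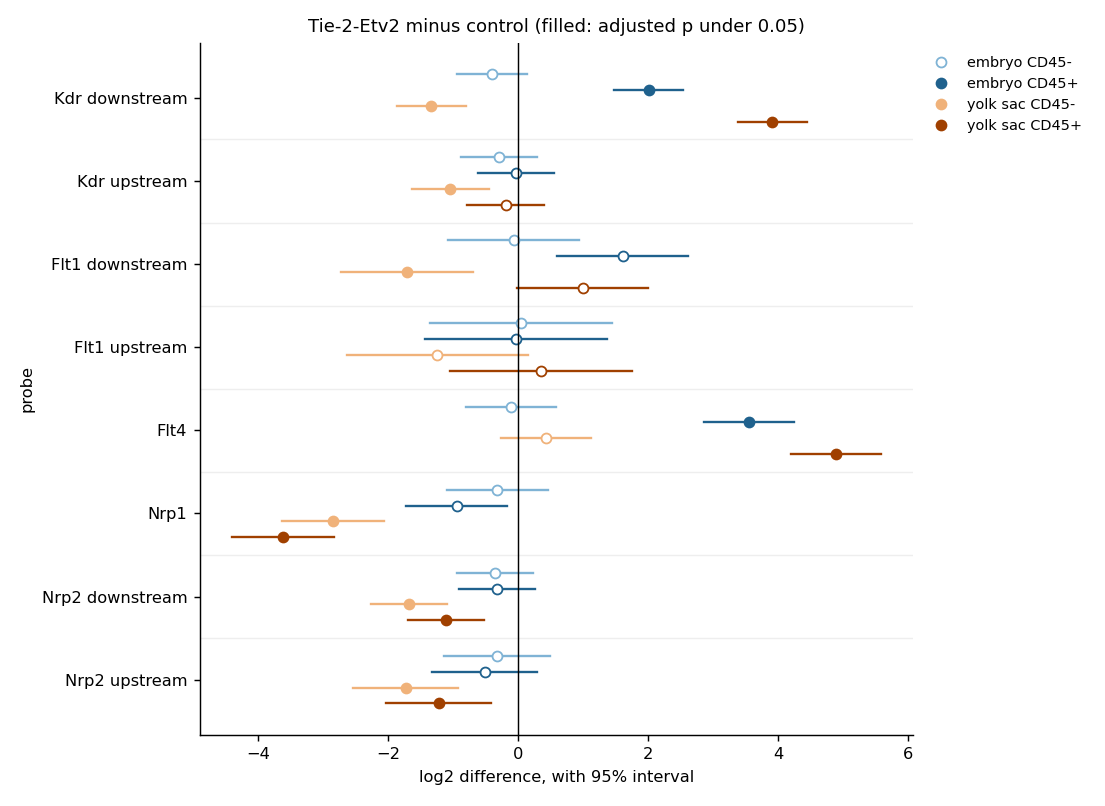
Difference between Tie-2-Etv2 and control cells (x axis, log2, with the 95% interval) of each probe (y axis) in embryo and yolk sac CD45- and CD45+ cells; filled points passed an adjusted p of 0.05. Kdr downstream and Flt4 were higher in both CD45+ settings, 6 probes were lower in yolk sac CD45- cells, and Nrp1 was lower by 3.61 in yolk sac CD45+ cells. The Flt4 sizes are fitted values, which shrink with another background correction.

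By setting, the Tie-2-Etv2 effect on the family was as follows. In embryo CD45- cells 0 of 8 probes passed, beside 1.14% of all probes; 0 of 8 had an unadjusted p under 0.05 and no other tool was run. Their median difference was -0.31, beside -0.02 over all probes. In embryo CD45+ cells 2 of 8 probes, Kdr downstream and Flt4, were higher, beside 2.63% of all probes called in either direction and 2.02% called higher. The median of the 8 was -0.03 there, as over all probes (-0.03). Yolk sac CD45- cells had 6 of 8 lower, beside 39.9% of all probes called and 15.1% called lower, and the members' median was -1.50 against 0.18 over all probes. Yolk sac CD45+ cells had 2 higher and 3 lower, beside 30.5% of all probes called, 17.2% higher and 13.4% lower, with medians of 0.08 and 0.05. There Kdr on 1 of its 2 probes and Flt4 rose, neither Flt1 probe passed, and Nrp1 and both Nrp2 probes fell.

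Whether these effects differed between tissues and gates was tested directly. The Kdr downstream effect in CD45+ cells was larger in the yolk sac than in the embryo by 1.90 ± 0.34 (adjusted p = 0.0209), with 2 of 8 probes called in that contrast, 1 in each direction, beside 2.68% of all probes (0.885% higher and 1.79% lower), while the upstream Kdr probe gave -0.16 (adjusted p = 0.876). That call was lost without embryo Tie-2-Etv2 replicate 1 (adjusted p = 0.0905), yolk sac control replicate 1 (0.0626), yolk sac Tie-2-Etv2 replicate 1 (0.0669) or yolk sac Tie-2-Etv2 replicate 2 (0.0692), with no filter on dim probes (0.0509) and with only the compared arrays (0.132). The Nrp1 effect was lower in the yolk sac than in the embryo in both gates, by -2.53 ± 0.50 in CD45- cells (adjusted p = 0.0108) and by -2.67 ± 0.50 in CD45+ cells (adjusted p = 0.025). In CD45- cells 2 of 8 probes were lower beside 14.2% of all probes called and 5.88% called lower, the other being Nrp2 downstream (-1.32 ± 0.37, adjusted p = 0.0412). The Nrp1 call held in CD45- cells without any 1 array; in CD45+ cells it was lost without embryo control replicate 1 (adjusted p = 0.0577), embryo Tie-2-Etv2 replicate 1 (0.115), yolk sac control replicate 1 (0.0626) or yolk sac Tie-2-Etv2 replicate 1 (0.101), with no filter (0.0543) and with only the compared arrays (0.0923). The Nrp2 call passed only without yolk sac Tie-2-Etv2 replicate 2 when arrays were left out in turn, with adjusted p from 0.0759 to 0.154 in the other 7 cases, and it was lost with no filter (0.0848) and with only the compared arrays (0.0531). The Flt4 effect in CD45+ cells did not pass between tissues (1.34 ± 0.44, adjusted p = 0.147).

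Between gates, the effect was higher in CD45+ than in CD45- cells for Kdr downstream by 2.41 ± 0.34 for embryo (adjusted p = 0.00694) and by 5.24 ± 0.34 for yolk sac (adjusted p = 1.02e-05). The embryo call was lost with only the embryo arrays in the fit (adjusted p = 0.0888). The upstream Kdr probe gave 0.26 (adjusted p = 1) and 0.85 (adjusted p = 0.164), the second passing with quantile normalization (1.18, adjusted p = 0.0176) or scaling on detected probes (1.08, adjusted p = 0.0379). Flt4 gave 3.65 ± 0.44 for embryo (adjusted p = 0.00276) and 4.46 ± 0.44 for yolk sac (adjusted p = 0.000124). With normexp these became 0.80 (adjusted p = 0.215, no longer called) and 0.88 (adjusted p = 0.0214). Flt1 downstream gave 2.70 ± 0.64 in the yolk sac (adjusted p = 0.0158), a call lost without CD45- control replicate 1 (adjusted p = 0.0558), CD45- Tie-2-Etv2 replicate 1 (0.063) or CD45+ Tie-2-Etv2 replicate 2 (0.0625). In the embryo 2 of 8 probes passed, both higher, beside 0.961% of all probes called and 0.466% called higher. In the yolk sac 3 of 8 did, beside 17% called and 7.42% called higher. The comparisons of 1 tissue share their arrays with each other, so these contrasts are not independent of the single effects above.

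The CD45 gate was compared next. In control cells of both tissues the receptors were far lower in CD45+ than in CD45- cells, Nrp2 was moderately lower, and Nrp1 did not pass. In the embryo Kdr downstream was 152-fold lower (-7.24 ± 0.24, adjusted p = 1.11e-08) and Flt1 downstream 114-fold lower (-6.84 ± 0.45, adjusted p = 1.32e-06). In the yolk sac they were 139-fold and 140.5-fold lower (-7.12 ± 0.24 and -7.13 ± 0.45). Flt4 was at least 58.5-fold lower in embryo and at least 32.1-fold lower in yolk sac CD45+ cells; its fitted differences of -8.02 and -6.91 became -3.70 and -2.83 with normexp. The upstream Kdr probe disagreed in size: it was lower by only 1.88-fold for embryo (-0.91 ± 0.26, adjusted p = 0.0211) and 2.40-fold for yolk sac (-1.27 ± 0.26, adjusted p = 0.00334). Its embryo call was lost without CD45- control replicate 1 (-0.64, adjusted p = 0.142) or CD45+ control replicate 2 (-0.71, adjusted p = 0.12), and with only the compared arrays (adjusted p = 0.144). Upstream Flt1 was at least 3.26-fold lower for embryo and at least 2.95-fold lower for yolk sac, calls lost with normexp (adjusted p = 0.0571 and 0.0654). Nrp2 was lower in embryo and yolk sac on the downstream (-2.96 and -2.59) and upstream probe (-2.27 and -1.92). Nrp1 differed by -0.23 (95% interval -1.01 to 0.55, adjusted p = 0.672) and -0.78 (-1.56 to 0.00, adjusted p = 0.112). In each tissue 7 of 8 probes were lower. Both counts include upstream Flt1, which was well above background on no CD45+ array. That probe passed the filter on dim signal only through CD45- groups, so its calls add no separate support. Of all probes 35.5% were called in the embryo, 16.6% lower, and 36.9% in the yolk sac, 15.4% lower, and the members' medians of -3.22 and -2.94 compare with 0.07 and 0.19 over all probes. Since these are bulk samples, fewer cells that carry a transcript and less of it per cell cannot be told apart.

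The same gates were compared in Tie-2-Etv2 cells. Kdr downstream was lower in CD45+ cells by -4.83 ± 0.24 for embryo and -1.87 ± 0.24 for yolk sac, where the signal was 3.66-fold lower. Flt4 gave -4.36 ± 0.31 and -2.45 ± 0.31, all arrays being well above background, and Flt1 downstream -5.16 ± 0.45 and -4.43 ± 0.45. With normexp the Flt4 sizes became -2.90 and -1.94. Upstream Kdr did not pass in either tissue (-0.64, adjusted p = 0.0974, and -0.42, adjusted p = 0.498); in the embryo it passed with quantile normalization (-0.91, adjusted p = 0.0068), scaling on detected probes (-0.83, adjusted p = 0.0164) and only the compared arrays (-0.64, adjusted p = 0.0431). Upstream Flt1 was at least 3.73-fold lower in embryo CD45+ cells and did not pass for yolk sac (adjusted p = 0.153). Nrp1 was lower in yolk sac CD45+ cells (-1.54 ± 0.35, adjusted p = 0.0182) and not called in the embryo (-0.86, adjusted p = 0.0953; 0.0437 with only the compared arrays). The yolk sac Nrp1 call was lost without CD45- Tie-2-Etv2 replicate 2 (-1.17, adjusted p = 0.158) or CD45+ Tie-2-Etv2 replicate 1 (-1.22, adjusted p = 0.167) and with only the compared arrays (adjusted p = 0.112), and its size was -0.99 with normexp. Nrp2 downstream gave -2.93 ± 0.26 and -2.02 ± 0.26, Nrp2 upstream -2.46 ± 0.37 and -1.41 ± 0.37 (adjusted p = 0.0349 in the yolk sac). The last call was lost with any 1 of the 4 yolk sac arrays left out, at adjusted p from 0.0815 to 0.222, and with no filter (0.0649); the downstream one was lost with only the compared arrays (0.0518). In each tissue 6 of 8 probes were lower, beside 29.1% of all probes called in the embryo, 13.7% lower, and 9.64% in the yolk sac, 5.53% lower. The embryo count includes upstream Flt1, with the same limit from the filter as in control cells.

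**Figure D3:**
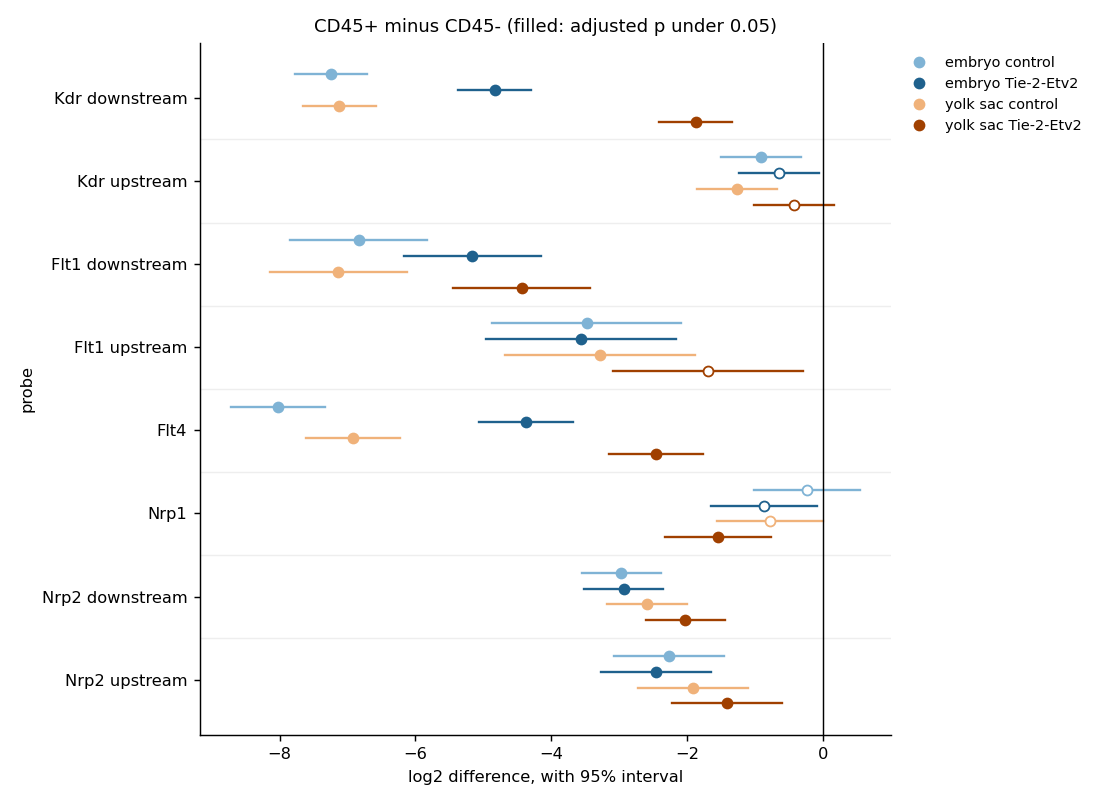
Difference between CD45+ and CD45- cells (x axis, log2, with the 95% interval) of each probe (y axis) in control and Tie-2-Etv2 cells of both tissues; filled points passed an adjusted p of 0.05. Kdr downstream runs from -7.24 in control embryo to -1.87 in Tie-2-Etv2 yolk sac cells, while Kdr upstream lies between -1.27 and -0.42. The Flt4 and Flt1 upstream sizes in control cells are fitted values against CD45+ arrays that were not well above background.

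Between tissues, no member passed in control cells of the same gate. In CD45- control cells 0 of 8 probes passed beside 10.5% of all probes, with 2 at an unadjusted p under 0.05 (Flt4, -0.71, adjusted p = 0.181, and Nrp2 downstream, -0.73, adjusted p = 0.109, yolk sac minus embryo); with normexp Flt4 passed at -0.63 (adjusted p = 0.0293). In CD45+ control cells 0 of 8 passed beside 1.52%, with 0 at an unadjusted p under 0.05. Limma was the tool in both cases and no other was run. In Tie-2-Etv2 CD45- cells the yolk sac was lower for Kdr downstream (-1.02 ± 0.24, adjusted p = 0.0113), Nrp1 (-1.90 ± 0.35, adjusted p = 0.00339) and both Nrp2 probes (-2.05 ± 0.26 and -2.05 ± 0.37), 4 of 8 lower beside 28.3% of all probes called and 11.9% called lower. The upstream Kdr probe gave -0.59 (adjusted p = 0.126), and passed with quantile normalization (-0.90, adjusted p = 0.00999) and scaling on detected probes (-0.84, adjusted p = 0.0182). The Kdr downstream call was lost without embryo replicate 1 (adjusted p = 0.0508), embryo replicate 2 (0.0675) or yolk sac replicate 1 (0.0902). In Tie-2-Etv2 CD45+ cells the yolk sac was higher for Kdr downstream (1.94 ± 0.24, adjusted p = 0.00146) and Flt4 (1.73 ± 0.31, adjusted p = 0.00741; 0.80 with normexp), and lower for Nrp1 (-2.59 ± 0.35, adjusted p = 0.00215) and Nrp2 downstream (-1.14 ± 0.26, adjusted p = 0.0225), 2 of 8 in each direction beside 10.7% of all probes called, 4.43% higher and 6.29% lower. Upstream Kdr gave -0.36 (adjusted p = 0.415). The Flt4 call was lost without embryo replicate 1 (1.28, adjusted p = 0.0747) or yolk sac replicate 1 (adjusted p = 0.0511), and the Nrp2 call without the same arrays (adjusted p = 0.174 and 0.168); with only the compared arrays both were lost (0.0675 and 0.102). These tissue differences are also differences between slides.

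Markers of the cell types a gate can hold moved with these results. Of 12 endothelial genes, 11 were measured and all 11 were well above background on both arrays of every group. Their summed signal, in linear units relative to the array's 75th percentile, ran from 42 to 55.9 in control and from 149 to 197 in Tie-2-Etv2 embryo CD45+ cells. In yolk sac CD45+ cells it ran from 43.9 to 46.8 in control and from 338 to 341 in Tie-2-Etv2 cells. There 10 of the 11 genes were higher, beside 20.5% of all genes, and in embryo CD45+ cells 5 were, beside 2.69%. In yolk sac CD45- cells the sum was 1220 to 1400 in control and 680 to 728 in Tie-2-Etv2 cells, with 7 genes lower, beside 19.3% of all genes. In embryo CD45- cells it was 1090 to 1140 and 970 to 1030. The rises of Kdr downstream and Flt4 in CD45+ cells, and the falls of Kdr and Flt1 in yolk sac CD45- cells, therefore went with the endothelial sum, whose part in them was not tested. Other member values did not go with it. Upstream Kdr did not pass in CD45+ cells of either tissue, and Nrp1 and Nrp2 fell in yolk sac CD45+ cells. Flt4 read above both controls in Tie-2-Etv2 yolk sac CD45- cells, a difference that did not pass.

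Blood markers moved too, and all marker counts below are to be read beside the shares of all genes. In the genotype comparison of yolk sac CD45+ cells 20.5% of all genes were called higher and 16.8% lower. The shares were 28.1% and 19.3% in yolk sac CD45-, 2.69% and 0.756% in embryo CD45+, and 1.62% and 0.0363% in embryo CD45- cells. The 12 macrophage genes summed to 1670 to 1750 in control and 829 to 1140 in Tie-2-Etv2 embryo CD45+ cells, and to 1530 to 1990 against 176 to 208 in yolk sac CD45+ cells, where 11 of 12 were lower, in the setting in which Nrp1 and Nrp2 fell. In CD45- cells the macrophage sum stayed between 10.3 and 40.1, with C1qa not well above background in any of those groups. The 8 megakaryocyte genes summed to between 5.6 and 7.68 in control and between 665 and 834 in Tie-2-Etv2 yolk sac CD45- cells, where Nrp1 fell 7.20-fold; in embryo CD45- cells, where no member passed, they summed to 7.25 to 10.9 and 202 to 301. In CD45+ cells their sum was 465 to 653 in control and 178 to 248 in Tie-2-Etv2 yolk sac, where 5 of the 8 were higher and 3 lower, Pf4 (-2.13), Ppbp (-2.92) and Gp6, and where Nrp1 and Nrp2 fell. In embryo CD45+ cells it was 282 to 358 and 191 to 217, with 4 genes higher and none lower. Such linear sums weigh the brightest genes most. Among these genes Pf4 went from a mean of 8.28 to 7.46 there, while Itga2b went from -1.52 to 3.26 and Gp9 from -1.66 to 1.80. The part of these cell types in the member values was not tested. In the yolk sac the 6 granulocyte and mast cell genes summed to between 6.78 and 6.92 in control against 86 and 106 in Tie-2-Etv2 CD45- cells (3 higher), and to between 26.2 and 79.6 against 521 and 631 in CD45+ cells (5 higher). In embryo CD45+ cells, where Kdr downstream and Flt4 rose and upstream Kdr did not pass, they summed to between 70.3 and 143 in control and between 504 and 641 in Tie-2-Etv2 cells, with Mpo (2.52, adjusted p = 0.0357) and Cpa3 (5.28, adjusted p = 0.0164) higher. In embryo CD45- cells the sums were 6.83 to 8.78 and 14.1 to 17, with Mpo higher (5.00, adjusted p = 0.000629). Of 11 mesenchymal and mural genes in the yolk sac, 4 were lower in CD45- (151 to 157 against 48.1 to 65.4) and 3 in CD45+ cells (27.7 to 66.8 against 12.7 to 15.9). Of all genes 19.3% and 16.8% were called lower there. Of 10 yolk sac endoderm genes 1 was lower in yolk sac CD45- cells (660 to 710 against 96.4 to 602) and none in yolk sac CD45+ cells. Of 8 erythroid genes 1 was lower in yolk sac CD45- and none in yolk sac CD45+ cells, and of 7 measured neural genes 1 was lower in each.

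**Figure D4:**
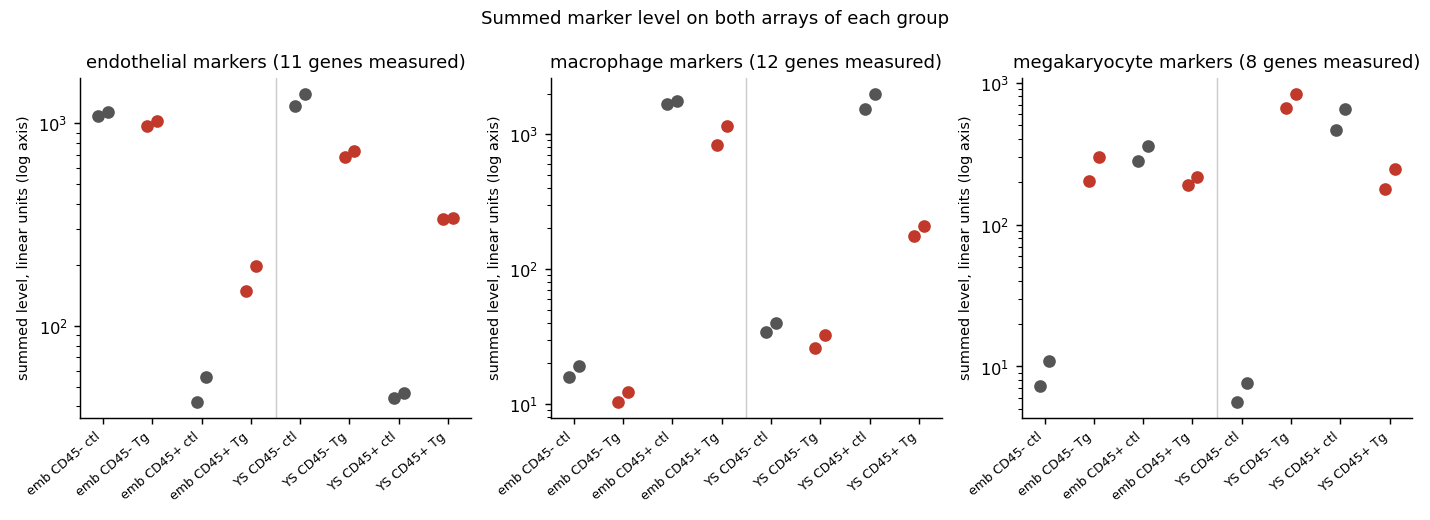
Summed signal of the endothelial, macrophage and megakaryocyte marker genes on each array (y axis, linear units relative to the array's 75th percentile, log axis), by tissue, gate and genotype as in the plot of probe levels. The sums weigh the brightest genes most. Endothelial markers rise from 43.9 to 46.8 in control to 338 to 341 in Tie-2-Etv2 yolk sac CD45+ cells, macrophage markers fall from 1530 to 1990 to 176 to 208 there, and megakaryocyte markers rise from 5.6 to 7.68 to 665 to 834 in yolk sac CD45- cells.

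Genes that work with the receptors were taken from 8 lists of 69 genes, 67 of them measured, each by its brightest probe. In embryo CD45- cells 2 were higher and 0 lower, beside 1.62% and 0.0363% of all 16527 genes. Embryo CD45+ cells had 5 higher and 0 lower, beside 2.69% and 0.756%. For yolk sac CD45- cells the counts were 8 higher and 38 lower, beside 28.1% and 19.3%, with a median of -1.18 against 0.15 over all genes. Yolk sac CD45+ cells had 10 higher and 20 lower, beside 20.5% and 16.8%, with a median of -0.41 against 0.03. Between gates in control cells, CD45+ cells had 13 higher and 31 lower in the embryo, beside 23% and 19.2%, and 10 higher and 31 lower in the yolk sac, beside 24.6% and 19%.

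Among the 5 ligand genes, Vegfc, whose protein binds Flt4 and Nrp2, rose with the transgene in CD45+ cells of both tissues and fell in yolk sac CD45- cells. Its mean went from -1.28 to 1.29 in embryo CD45+ cells (2.57 ± 0.36, adjusted p = 0.00458), from -1.05 to 2.59 in yolk sac CD45+ cells (3.64 ± 0.36, adjusted p = 6.24e-05) and from 5.17 to 2.86 in yolk sac CD45- cells (-2.30 ± 0.36, adjusted p = 0.000681). Vegfa, the ligand of Kdr and Flt1, fell by 1.89 ± 0.47 in yolk sac CD45- cells (adjusted p = 0.00931). Figf, the gene of VEGF-D, was at least 1.85-fold lower there (adjusted p = 0.00467), no longer being well above background. Vegfb, the Flt1 ligand, fell by 0.82 ± 0.17 in yolk sac CD45+ cells (adjusted p = 0.00505). Pgf, placental growth factor, passed in none of the 4 genotype comparisons. In control cells Vegfc was lower in CD45+ than in CD45- cells (-5.22 for embryo and -6.21 for yolk sac), as was Vegfa (-2.56 and -3.12), while Vegfb was higher (1.42 and 1.25). Of the 2 genes that process VEGF-C, 1 passed the filter on dim probes, Ccbe1. It was not well above background on any embryo array, and in the yolk sac it did not pass (adjusted p = 0.132 in CD45- and 0.184 in CD45+ cells).

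**Figure D5:**
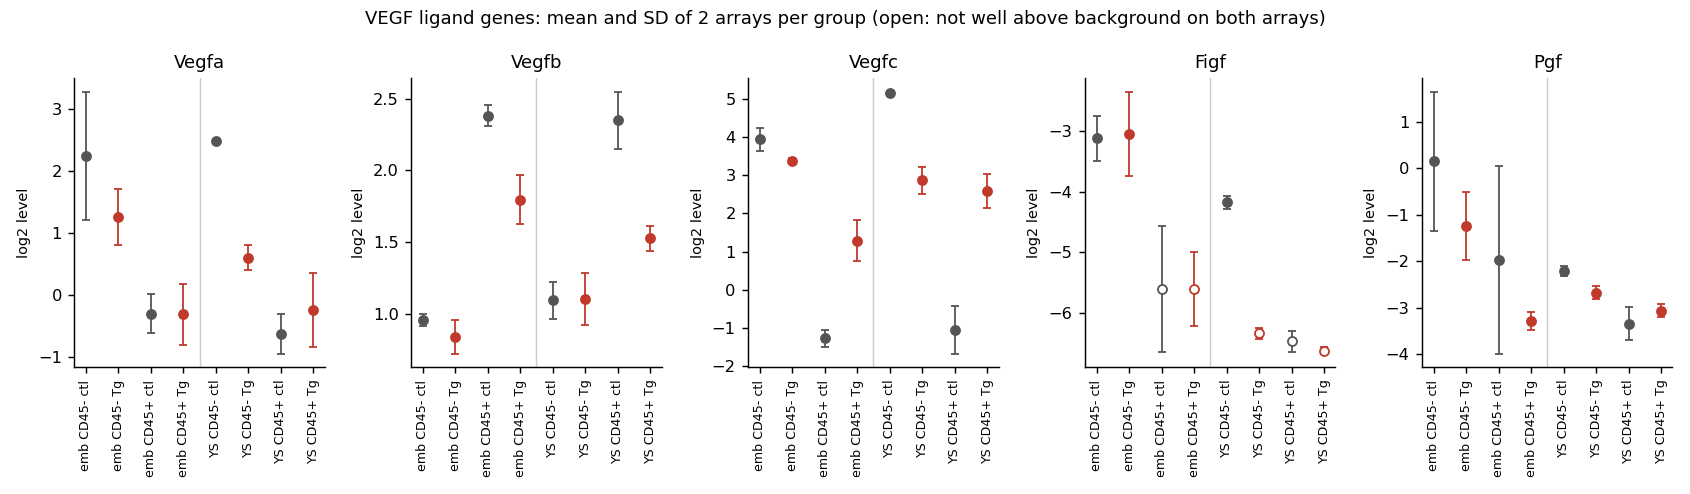
Mean level of the 5 VEGF ligand genes (y axis, log2 signal minus the array's 75th percentile; error bars, SD of 2 arrays) in each group of tissue, gate and genotype; open points were not well above background on both arrays. Vegfc in CD45+ cells goes from -1.28 to 1.29 for embryo and from -1.05 to 2.59 for yolk sac, and Vegfb is higher in control CD45+ than in control CD45- cells.

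The semaphorins and plexins, ligands and signalling partners of the neuropilins, were lower in transgenic yolk sac CD45- cells, where 19.3% of all genes were called lower. Of 6 measured class 3 semaphorins 5 fell: Sema3c (-3.57 ± 1.05, with 1 of 2 transgenic arrays well above background), Sema3f (-2.83 ± 0.48), Sema3g (-2.45 ± 0.38), Sema3b (-2.27 ± 0.39), and Sema3d, which was at least 3.97-fold lower. For the remaining gene, Sema3a, the brightest probe did not pass (-0.97) and another probe was lower (-1.38, adjusted p = 0.00353). All 5 plexins fell there, led by Plxna3 (-2.21 ± 0.50), Plxna2 (-1.53 ± 0.36), the Sema3e receptor Plxnd1 (-1.18 ± 0.38) and Plxna4 (-0.92 ± 0.32). In the CD45+ gate Sema3b (-2.03 ± 0.39), Sema3f (-1.62 ± 0.48) and Plxna1 (-0.62 ± 0.20) fell. Between gates in control cells, the vascular semaphorin Sema3g was far lower in CD45+ cells of embryo (-6.74 ± 0.38) and yolk sac (-7.18 ± 0.38), as were Plxna2 (-3.20 and -3.65), Plxnd1 (-2.83 and -2.51) and Plxna4 (-2.16 and -3.58).

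Of 7 receptor partners, Cdh5 rose with the transgene in CD45+ cells of embryo (1.99 ± 0.30) and yolk sac (3.25 ± 0.30), and Ptprb, the phosphatase VE-PTP of endothelial junctions, rose in yolk sac CD45+ cells (2.55 ± 0.38); in embryo CD45+ cells its brightest probe did not pass (1.53, adjusted p = 0.0703) and another did (2.29, adjusted p = 0.018). Dab2, an adaptor of receptor uptake (-3.83 ± 0.48), and Ptprj, a phosphatase of receptor tyrosine kinases (-2.74 ± 0.28), fell in yolk sac CD45+ cells. In the CD45- gate of the yolk sac 5 partners fell, beside 19.3% of all genes, among them Efnb2, the arterial ephrin that aids VEGF receptor uptake (-2.92 ± 0.34), Dab2 (-2.71 ± 0.48) and Ptprb (-2.35 ± 0.38). There 2 rose, beside 28.1% of all genes called higher. They were Gipc1, a neuropilin-binding adaptor (0.74 ± 0.24), and Ptprj (2.44 ± 0.28, another of its probes giving 0.62, adjusted p = 0.0799). In embryo CD45- cells Ptprj was the 1 partner higher (1.52 ± 0.28, adjusted p = 0.027), with its other probes at 1.28, 1.53 and 0.64 and none of them called.

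Among 23 signal transducers, Prkca, a protein kinase C gene, rose in CD45- cells of embryo (2.72 ± 0.26) and yolk sac (4.70 ± 0.26). In all, 6 rose and 7 fell in yolk sac CD45- cells, counts to be read beside 28.1% and 19.3% of all genes, the falls led by Hspb1 (-2.88 ± 0.83), Shb (-2.33 ± 0.49) and Yes1 (-2.11 ± 0.45). Yolk sac CD45+ cells had 4 that rose and 8 that fell, beside 20.5% and 16.8% of all genes, among them Prkcb (-2.53 ± 0.27), Hspb1 (-2.49 ± 0.83) and the Src-family kinase Yes1, at least 3.72-fold lower. Plcg1, the phospholipase that carries the Kdr signal, rose on its brightest probe in embryo (1.24 ± 0.16) and yolk sac (2.30 ± 0.16) CD45+ cells, but another Plcg1 probe gave 0.48 (adjusted p = 0.621) and 0.16 (adjusted p = 0.774). The adaptor Sh2d2a rose in embryo CD45+ cells (1.92 ± 0.22) on its brightest probe and gave 0.68 (adjusted p = 0.393) on another.

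Of 14 genes that VEGF is known to induce, 8 fell in yolk sac CD45- cells, beside 19.3% of all genes, led by F3, the gene of tissue factor (-4.93 ± 0.95), Unc5b (-2.84 ± 0.55), Adamts1 (-2.34 ± 0.60) and Apln (-1.93 ± 0.42). In the CD45+ gate 4 fell, including Plau (-3.27 ± 0.58), Rcan1 (-2.87 ± 0.47) and Adamts1 (-2.60 ± 0.60), and 2 rose, including Dll4, the Notch ligand of sprouting tips (2.65 ± 0.43, with 1 of 2 control arrays well above background). Of all genes 16.8% were called lower and 20.5% higher there. Between gates in control cells, the tip cell genes Esm1 and Apln were lower in CD45+ cells of embryo (-7.95 ± 0.84 and -7.13 ± 0.42, Apln being well above background on 1 of the 2 CD45+ arrays) and yolk sac (-8.90 ± 0.84 and -7.12 ± 0.42), and Dll4 was at least 71.0-fold lower in embryo CD45+ cells.

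Of 6 regulators of lymphatic fate, the setting in which Flt4 is best known, Sox18 rose in CD45+ cells with the transgene, by 5.10 ± 0.65 for embryo (adjusted p = 0.00273) and 5.72 ± 0.65 for yolk sac (adjusted p = 0.000135), where only 1 of the 2 control arrays was well above background. It was the 1 gene of the list that rose in either tissue. In yolk sac CD45- cells 5 fell, beside 19.3% of all genes: Pdpn (-4.47 ± 0.58), Foxc2 (-3.50 ± 0.73), the venous factor Nr2f2 or COUP-TFII (-2.89 ± 0.37), Lyve1 (-1.71 ± 0.48) and Prox1, at least 2.88-fold lower. Lyve1, which embryonic macrophages also carry (-3.34 ± 0.48), and Prox1 (-1.62 ± 0.47, with 1 of 2 transgenic arrays well above background) fell in yolk sac CD45+ cells.

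Ordered by group mean, Kdr downstream ran from control CD45- embryo (6.89) and yolk sac (6.81), whose arrays overlapped, through Tie-2-Etv2 CD45- embryo (6.49) and yolk sac (5.47), to Tie-2-Etv2 CD45+ yolk sac (3.60) and embryo (1.65), and last the control CD45+ groups (-0.31 and -0.35), which overlapped. Flt4 held the same division into 3 tiers, from 1.33 to 0.62 in CD45- groups, -1.41 and -3.14 in transgenic CD45+ groups and -6.30 and -6.69 in control CD45+ groups, its top 3 groups overlapping in turn. Nrp1 had another order: control yolk sac CD45- cells came first (2.35), then embryo CD45- and both CD45+ control groups between 1.73 and 1.50, which overlapped, and the transgenic yolk sac groups last (-0.49 and -2.04). On Kdr upstream the 5 lowest groups, from 3.74 to 3.32, each overlapped their neighbour.

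Over the 16 arrays, which share groups and slides, the genes whose levels were most like Kdr downstream by Pearson correlation among 16526 others were Caskin2 (0.996), Tspan6 (0.996) and Rasip1 (0.996), a description of this probe added after its values were seen. The brightest Kdr probe is the upstream one, and its nearest were Ttc16 (0.959), Abcc8 (0.955) and Pcdh1 (0.949). Flt1 downstream was nearest to Bace2 (0.992), Mmrn2 (0.992) and Gpr182 (0.991), and Flt4 to Itga2 (0.994), Dysf (0.992) and Esam (0.988). Nrp1 was nearest to Tmem109 (0.974), Lima1 (0.971) and Ccnd1 (0.969), and Nrp2 downstream to Asb4 (0.983), Airn (0.982) and Rftn2 (0.982). Within the family, Kdr downstream correlated at 0.977 with Flt4, 0.954 with Flt1 downstream, 0.688 with the other Kdr probe and 0.067 with Nrp1, and the Nrp2 probes at 0.977 with each other.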

How the data were processed

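Total RNA of 16 sorted samples was labelled with Cy3 and hybridised to 1-colour Agilent arrays of 62976 spots; Agilent Feature Extraction 10.7 wrote the scanner intensity files (per the submitters' processing notes). The deposited processed signal is an intensity after background subtraction and detrending within the array, per the file headers. The authors' deposited log2 table differs from the scanner values by a constant per array and per probe (correlation of array differences 1, column medians -0.183 to 0.175), and served as an alternative; the value it was centred on is not stated.

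Control and outlier spots were left out, spots of a probe averaged, and log2 signals scaled to the array's 75th percentile (55594 probes). Probes were kept if both arrays of some group read them well above background (34126). The 8 group means were fitted over all 16 arrays with limma 3.58.1 in R 4.3.3 (lmFit, eBayes), with Benjamini-Hochberg adjustment over all kept probes per contrast and a threshold of 0.05; every adjusted p is limma's. With 2 arrays a group, array number limits the precision. On simulated data for the yolk sac CD45+ genotype comparison (34126 probes), 20% of changes of 1, 60% of 2 and 98% of 4 on the log2 scale were called. In that simulation 50 probes were changed by each amount and the rest were left unchanged. In the data 30.5% of probes were called in this comparison, so those rates need not hold there.

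All member probes are reported; of each list at most the 4 called genes with the largest change per comparison are named by that rule, plus Etv2, Ptprc, Cdh5 and Tek as label checks and the 3 genes most alike to each member's brightest probe. Genes named beyond that rule (Sema3b, Gipc1, Prox1, Ccbe1, Pf4, Ppbp, Gp6, and Plcg1, Sh2d2a and Sema3a for their other probes) were chosen after their values were seen. Members and lists were chosen with earlier results of these data known. Probe positions are those of the files (mm9); promoters are RefSeq's (GRCm38.p6), where all 5 members matched.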

Additional observations from a re-analysis of the deposited data

Results flagged for a closer look

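In 9 member contrasts the test of the difference between effects passed. Between tissues (Tie-2-Etv2 effect in yolk sac minus that in embryo), Nrp1 gave -2.53 in CD45- and -2.67 in CD45+ cells, Nrp2 downstream -1.32 in CD45- cells, and Kdr downstream 1.90 in CD45+ cells. Between gates (effect in CD45+ minus that in CD45- cells), embryo and yolk sac values were 2.41 and 5.24 for Kdr downstream and 3.65 and 4.46 for Flt4. Both Flt4 values are fits against control CD45+ arrays that were not well above background; with normexp they were 0.80 (adjusted p = 0.215, no longer called) and 0.88 (adjusted p = 0.0214). Between gates the yolk sac value of Flt1 downstream was 2.70. The upstream Kdr probe passed in none of the 4 contrasts of effects as fitted for the report, with values from -0.75 to 0.85. It passed between tissues in CD45- cells with quantile normalization (-1.20, adjusted p = 0.0248) and scaling on detected probes (-1.08, adjusted p = 0.048), and between gates in the yolk sac with both (1.18, adjusted p = 0.0176, and 1.08, adjusted p = 0.0379). Downstream Kdr passed between tissues in CD45- cells with quantile normalization (-1.41, adjusted p = 0.0399). Groups of 2 arrays are too small for a test of single outlying arrays.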

How the results depend on the processing

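Over the 128 tests of a member probe and 1834 alternative values, 1757 kept their direction and side of the threshold, 63 lost a call, 14 gained one and none reversed; 35 of 56 calls held under every alternative run, and 50 values that passed in neither setting changed sign. Counts of member probes called moved as follows. With the brightest probe of each gene alone, where fewer probes are counted, they were 1 (from 2) for the embryo CD45+ genotype effect, 3 (from 5) for yolk sac CD45+, 4 (from 7) for the gate in control embryo and 4 (from 7) in control yolk sac, 3 (from 6) in Tie-2-Etv2 embryo, 2 (from 4) between tissues in Tie-2-Etv2 CD45- cells, 1 (from 2) for the tissue difference in effect in CD45+ cells and 1 (from 2) for the gate difference in effect in the embryo. With only the compared arrays, where fewer samples are fitted, they were 0, 3, 2 (from 4, tissues, Tie-2-Etv2 CD45+), 1 and 0 (from 2, tissue difference in effect, CD45- and CD45+) and 1 (from 2, gate difference in effect, embryo; also 1 with that slide alone). A strict filter gave 1 for embryo CD45+ and 1 for the gate difference in the embryo; normexp gave 1 there and 1 (from 0) between tissues in control CD45- cells; no filter gave 1 and 0 for the tissue difference in CD45- and CD45+ cells, where quantile normalization (adding both Kdr probes) and scaling on detected probes (adding upstream Kdr and upstream Nrp2) gave 4 and 4 in CD45- cells. The cause of these moves was otherwise not tested. Leaving out 1 array gave 3 to 5 for yolk sac CD45+, 2 to 4 between tissues in Tie-2-Etv2 CD45+ cells, 1 to 2 and 0 to 2 for the tissue difference in CD45- and CD45+ cells. Replicates share only a number: over 28 pairs of groups, deviations of same-numbered arrays correlated at -0.0534 to 0.3767, over 0.1 in 9. With a replicate block the 1 changed call was upstream Kdr between gates in Tie-2-Etv2 embryo cells (-0.64, adjusted p = 0.0433).

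Counts of all probes called moved by over 1.5 times with the compared arrays alone, for genotype (embryo CD45- 128 against 390, embryo CD45+ 0 against 897, yolk sac CD45+ 5300 against 10425), the control embryo gate (7021 against 12127), tissue (control CD45- 2360 against 3572, control CD45+ 0 against 518, Tie-2-Etv2 CD45+ 2021 against 3657), the tissue difference in effect in CD45+ cells (0 against 913) and the gate difference in the embryo (155 against 328; 155 with that slide alone). The strict filter gave 180 for embryo CD45- genotype, 111 for tissue in control CD45+ cells and 167 for the embryo gate difference. The embryo slide alone gave 448 for embryo CD45+ genotype, normexp 160 for tissue in control CD45+ cells, and no filter 255 there, 2179 in Tie-2-Etv2 CD45+ cells, and 2738 (against 4843) and 341 for the tissue difference in CD45- and CD45+ cells. Leaving out 1 array moved all-probe counts by over 1.5 times too. The ranges were 353 to 1182 for embryo CD45+ genotype (lowest without Tie-2-Etv2 replicate 2), 8575 to 11674 (of 13629) for yolk sac CD45- and 6630 to 9907 for yolk sac CD45+ genotype (each lowest without Tie-2-Etv2 replicate 1), and 1931 to 2334 (of 3289) for the Tie-2-Etv2 yolk sac gate (CD45- Tie-2-Etv2 replicate 2 and CD45+ Tie-2-Etv2 replicate 1). For tissue they were 1109 to 3095 in control CD45- (either yolk sac array or embryo replicate 1), 4341 to 7464 (of 9647) in Tie-2-Etv2 CD45- (either embryo array or yolk sac replicate 1), 346 to 1191 in control CD45+ (yolk sac replicate 2) and 748 to 2609 in Tie-2-Etv2 CD45+ cells (either yolk sac array or embryo replicate 1). For differences in effect they were 1738 to 4462 between tissues in CD45- cells (either embryo Tie-2-Etv2 array, either yolk sac control array or yolk sac Tie-2-Etv2 replicate 1), 115 to 2021 in CD45+ cells (replicate 1 of either embryo group or any yolk sac array), and 203 to 488 between gates in the embryo (CD45- Tie-2-Etv2 replicate 2). The shares of all probes printed beside member counts rest on these counts. Normexp moved the share of called probes that were higher from 76.9% to 58.8% in embryo CD45+ cells. Scaling on detected probes moved the median of all probes by -0.32 in the yolk sac CD45- genotype comparison, where the share of called probes that were higher was 41.7% against 62.1%, and by -0.20, -0.19 and -0.27 in the gate comparisons of control embryo, Tie-2-Etv2 embryo and control yolk sac (43%, 41.7% and 42.9% against 53.4%, 52.9% and 58.2%). It moved it by -0.26 and -0.10 between tissues in Tie-2-Etv2 CD45- and CD45+ cells (36% and 28.9% against 57.9% and 41.3%), by -0.34 and -0.12 in the tissue difference of CD45- and CD45+ cells (30.4% and 23.2% against 58.6% and 33.1%), and by 0.23 in the yolk sac gate difference (56.4% against 43.6%). Signal at background limits Flt4 and upstream Flt1 in CD45+ cells to bounds.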

Other observations

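Another probe is described in the files as Flt1 but named by an Ensembl transcript, so the rule for members did not take it. It lies at chr5:148446872-148446931 (mm9, minus strand), between both Flt1 probes, and was well above background on all 16 arrays. It read 5.25 and 4.51 in control and 4.44 and 4.27 in Tie-2-Etv2 embryo CD45- cells. Embryo CD45+ arrays read -2.41 and -2.39 in control and -1.23 and -0.75 in Tie-2-Etv2 cells. Yolk sac arrays in the same order of genotypes read 4.70 and 4.68 against 2.65 and 3.52 in CD45- cells, and -1.46 and -1.69 against -1.34 and -0.49 in CD45+ cells. Like the downstream Flt1 probe, it read below both controls on each Tie-2-Etv2 array of yolk sac CD45- cells and lower on every CD45+ than on every CD45- array. Also like that probe, whose CD45+ differences did not pass, it read above both controls on each Tie-2-Etv2 CD45+ array of embryo and yolk sac. In the yolk sac the lower of these arrays, at -1.34, lay close to the higher control, at -1.46. Groups of 2 arrays separate easily without any effect, and the share of all probes that did so was not counted. No test of it is given here.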
